A study of Mus musculus with 2 samples.

Results

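Superficial chondrocytes are the cells of the cartilage surface that faces the joint space, and *Prg4* encodes lubricin, the glycoprotein that lubricates that surface. The Prg4-positive superficial chondrocytes described here carry that name by their RNA, and their position was not measured. They were chosen by measured counts in single cells of mouse fetal femur. The count used is that of unique molecular identifiers (UMIs), tags that mark single captured RNA molecules. A member had at least 2 *Prg4* UMIs, at most 1 UMI of *Bpifb1*, at least 20 *Col2a1* UMIs and under 20 *Col10a1* UMIs per 10000 UMIs of the cell, and at most 2 summed UMIs of the mitosis genes *Top2a*, *Cenpf* and *Prc1*. In total 1722 of 12356 kept cells met the rule, 612 of 5736 in the WT library and 1110 of 6620 in the Bmx-CreER Wls library.

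The study asked how arterial vessels and their Wnt signals act on blood-forming cells in fetal bone marrow, and the cartilage cells described here came along in the same suspension. Bone was crushed and digested with collagenase type 4, committed blood cells were removed with magnetic beads, and whole-transcriptome libraries were made on the BD Rhapsody microwell platform. There was 1 library per genotype, both labelled C57BL/6 and stage E18.5, which is late gestation. The WT library had no transgene named. The methods name C57BL/6 animals for wild-type marrow and, where possible, littermates as controls of mutants, but do not say which applies to this library or whether its dams received tamoxifen. The Bmx-CreER Wls embryos carried a tamoxifen-inducible Cre under *Bmx* control (Bmx-CreER +/T) with floxed *Wls* (Wls f/f), and their dams received tamoxifen by intraperitoneal injection from mid to late gestation. Cre driven by *Bmx* is used to target arterial endothelial cells, and whether any member had lost *Wls* was not tested. The number of embryos behind each library is not given in the sources used here.

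Articular cartilage grows from the interzone, a layer of *Gdf5*-expressing cells that forms where a joint will open. Cells beneath its surface deposit collagen II and aggrecan, and those deeper in the growth plate pass through column-forming and hypertrophic stages, led by *Ihh* and then *Col10a1*. The surface layer stays flat, secretes lubricin and matrix-bound inhibitors of growth factor signals, and is held apart from the hypertrophic course.

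*Wls* encodes the carrier that Wnt proteins need for secretion. Its level was 144 UMIs per 1000000 UMIs of the pooled cells (CPM; 125 to 166) in WT members and 116 CPM (104 to 129) in Bmx-CreER Wls members. In endothelial cells it was 44.7 CPM (35.8 to 55.1) and 24.1 CPM (17.4 to 32.6) in the same order. Endothelial cells were taken as those with at least 4 summed UMIs of *Pecam1*, *Cdh5*, *Emcn* and *Egfl7* and at most 1 of 4 haematopoietic genes, and they include vessels other than arteries. Counts were read near the 3′ end of transcripts and the place of the deleted exon is not given, so these levels do not check the genotype label. The ranges in parentheses are exact 95% intervals and cover counting error only. With 1 library per genotype no difference has a replicate check and no test was made.

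The libraries held 22708005 and 24704991 UMIs over 5998 and 6825 barcodes, WT before Bmx-CreER Wls. Kept cells showed more than 200 and fewer than 5000 genes, had under 30% of UMIs from mitochondrial genes, and reached medians of 3128 and 3067 UMIs. Between the files 49 barcodes were shared, 48 of them in kept cells and 2 in members. The libraries also differed in sex. *Xist*, the RNA of the inactive X chromosome, stood at 76.4 CPM in WT and 347 CPM in Bmx-CreER Wls members, and 4 Y-linked genes summed to 184 and 6.84 CPM. Among members with UMIs of only *Xist* or only Y-linked genes, 27.2% of 243 were *Xist* cells in WT and 97.3% of 587 in Bmx-CreER Wls. Most readable WT members were thus male and nearly all readable Bmx-CreER Wls members female, so genotype, sex, litter, tamoxifen and library cannot be told apart.

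The values that chose the members are description only. Members had a median of 10 *Prg4* UMIs in each library, with maxima of 122 and 94 in WT and Bmx-CreER Wls. At the threshold, 60 WT members (9.80%) and 131 Bmx-CreER Wls members (11.8%) had exactly 2 *Prg4* UMIs, while 121 and 241 cells that met the rest of the rule had 1 UMI and stayed outside. The median *Col2a1* level was 303 and 426 UMIs per 10000, far above the limit of 20. From 20 to 30 per 10000 lay 19 and 17 members, and just below, from 10 to 20, lay 18 cells in each library. Of the cells with 2 or more *Prg4* UMIs, 885 and 1482 in all, the *Bpifb1* limit removed 13 and 25, the *Col2a1* limit 94 and 76, the *Col10a1* limit 6 and 5, and the mitosis limit 160 and 266. The last step was the largest, so the members are the non-mitotic part of a population that also held dividing cells.

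Members made up 10.7% (9.88 to 11.5) of kept WT cells and 16.8% (15.9 to 17.7) of kept Bmx-CreER Wls cells. Cells that met the rest of the rule, with any *Prg4* count, were also more frequent among kept cells of the Bmx-CreER Wls library. Among the 1986 and 3380 cells that met every other part of the rule, members were 30.8% (28.8 to 32.9) and 32.8% (31.3 to 34.4), with overlapping intervals. These denominators contain the members, and Prg4-negative chondrocytes were 21.8% and 30.6% of kept cells. What set the shares was not tested, and a crushed and bead-depleted suspension does not preserve tissue proportions. Members were shallower than their comparison cells, with medians of 2118 and 2440 UMIs and 1109 and 1222 genes. The pools held 1400772 and 2923447 UMIs, so that 3 counts, used as the floor where no UMI was found, equal 2.14 and 1.03 CPM.

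The label was read beside *Cilp*, *Wif1*, *Nt5e* and *Vwa1*, which the rule did not use. The comparison population was the Prg4-negative chondrocytes, 1253 WT and 2029 Bmx-CreER Wls cells that met the rest of the rule with 0 *Prg4* UMIs. Cilp protein is a secreted matrix protein of cartilage that binds growth factors of the TGF-beta family. Its level was 1224 CPM (1166 to 1283) in WT members and 740.2 CPM (709 to 772) in Bmx-CreER Wls members, against 54.2 and 63.9 CPM in Prg4-negative chondrocytes. *Wif1*, a secreted Wnt inhibitor, had 1032 and 1186 CPM in members and 113 and 192 CPM in Prg4-negative cells. *Nt5e* encodes CD73, the surface enzyme that makes adenosine from AMP. It had 211 and 325 CPM in members and 48.4 and 46.6 CPM in Prg4-negative cells. *Vwa1*, a von Willebrand factor A domain protein of the pericellular matrix, had 131 and 283 CPM against 10.9 and 36.3 CPM. All 4 markers were thus higher in members of each library. They were named together with the label, with earlier results of these data known, so they describe the members and are no independent check.

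**Figure D1:**
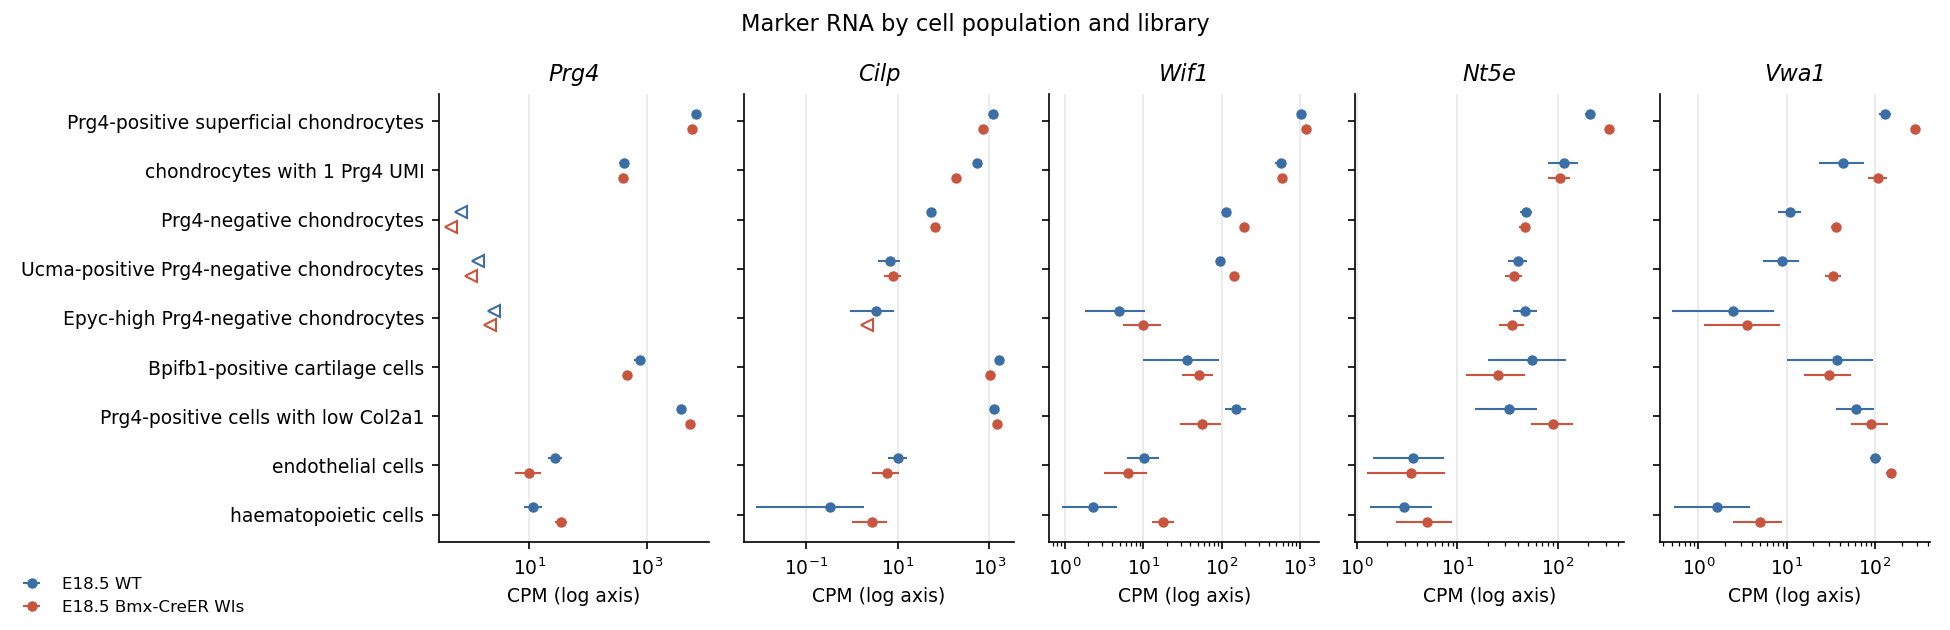
Level of the 5 marker genes in 9 cell populations of the WT library (blue) and the Bmx-CreER Wls library (red), as UMIs per 1000000 UMIs of the pooled cells on a log axis; bars are exact 95% Poisson intervals and open arrowheads mark 0 UMIs, drawn at 3 counts. *Cilp* stood at 1224 and 740.2 CPM in Prg4-positive chondrocytes and at 54.2 and 63.9 CPM in Prg4-negative chondrocytes.

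Single cells showed the same separation with gaps in each marker. A *Cilp* UMI was present in 41.0% (37.1 to 45.0) of WT and 39.7% (36.8 to 42.7) of Bmx-CreER Wls members, and in 3.59% and 3.94% of Prg4-negative chondrocytes. When every cell was thinned to 1000 UMIs, which left out 14 and 17 members, the shares were 34.9% and 31.6% in members and 3.09% and 2.82% in Prg4-negative cells. Endothelial cells, with medians of 3034 and 3326 UMIs and no known use of *Cilp*, had a UMI in 0.353% and 0.905%, and a *Prg4* UMI in 1.59% and 2.26%. Haematopoietic cells, which are deeper, had a *Prg4* UMI in 3.44% and 3.77%. The source of these UMIs was not tested. Of the 4 markers, none was seen in 59 WT members (9.64%) and 69 Bmx-CreER Wls members (6.22%), while 66.9% and 62.2% of Prg4-negative cells lacked all of them. At least 2 of the 4 were found in 50.5% and 64.9% of members and in 4.87% and 9.91% of Prg4-negative cells. None of these genes is particular to the members. A *Vwa1* UMI was also found in 23.6% and 34.2% of endothelial cells. Cartilage cells with at least 2 UMIs of *Bpifb1* had 1590.0 and 1036 CPM of *Cilp*, above the members.

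Chondrocytes with exactly 1 *Prg4* UMI lay between the populations in pooled levels. Their *Cilp* level was 535 CPM in WT and 184 CPM in Bmx-CreER Wls, and *Wif1* was at 568 and 593 CPM. *Matn1*, a cartilage matrix protein, stood at 2848 and 2650 CPM there, between 10152 and 8222 CPM in Prg4-negative cells and 609.7 and 689.9 CPM in members. Whether these cells are intermediate or a mixture of both kinds cannot be told from pooled levels.

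Members were then compared with Prg4-negative chondrocytes across all genes. Summed UMIs were scaled to CPM in each library, 4714 genes with a mean of at least 30 CPM over the 4 pools were compared, without the genes of the rule, and a gene counted as higher or lower when it passed 2-fold in both libraries. Since *Prg4* chose the members, this contrast is description. In it 179 genes were higher, 3.80% of those compared, and 94 were lower, 1.99%. Counts in the gene lists below stand against these shares, and no list was tested. The median log2 ratio over all genes compared was 0.12 in WT and 0.06 in Bmx-CreER Wls. The lowest and highest deciles were -0.49 and 0.84 in WT and -0.38 and 0.58 in Bmx-CreER Wls. Most genes thus stood within 2-fold in each library.

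Ranked by the ratio in the library nearer to 1, the 10 highest genes among those with at least 100 CPM on average were *Cilp*, *Creb5*, *Itih5*, *Vwa1*, *Rgs2*, *Wif1*, *Gas1*, *Erg*, *Bmp2* and *Dkk3*. *Cilp* led with a ratio of 22.6 (19.7 to 26.0) in WT and 11.6 (10.4 to 12.9) in Bmx-CreER Wls. *Creb5* encodes a transcription factor of the CREB and ATF group that acts on *Prg4* in articular cartilage. It had 362 and 320.5 CPM in members against 27.2 and 39.6 CPM, ratios of 13.3 (10.9 to 16.4) and 8.10 (7.04 to 9.34). *Erg*, an ETS family transcription factor of joint surface cartilage and of endothelium, had 209.9 and 198 CPM against 33.0 and 39.3 CPM, ratios of 6.36 and 5.05. Both factors of the joint surface programme thus stood well above the level in other chondrocytes.

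The remaining genes of the 10 are of several kinds. *Gas1*, a membrane co-receptor for hedgehog proteins, reached 1009 and 1223 CPM in members against 144 and 214 CPM, ratios of 7.03 and 5.71. *Bmp2*, a bone morphogenetic protein, had 300.5 and 201.5 CPM against 51.2 and 42.8 CPM. *Itih5*, a secreted protein that binds hyaluronan, had 429 and 411 CPM, with ratios of 8.31 and 8.02. Dkk3 is a secreted protein of the Dickkopf family, and *Rgs2* encodes a regulator that damps signals of G protein-coupled receptors. *Dkk3* was at 246 and 355 CPM with ratios of 4.69 and 5.78, and *Rgs2* at 162 and 200.4 CPM with ratios of 7.74 and 6.67. The order of these genes by ratio was close but not equal between libraries, as *Nt5e*, outside the 10, had 4.35 in WT and 6.98 in Bmx-CreER Wls.

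**Figure D2:**
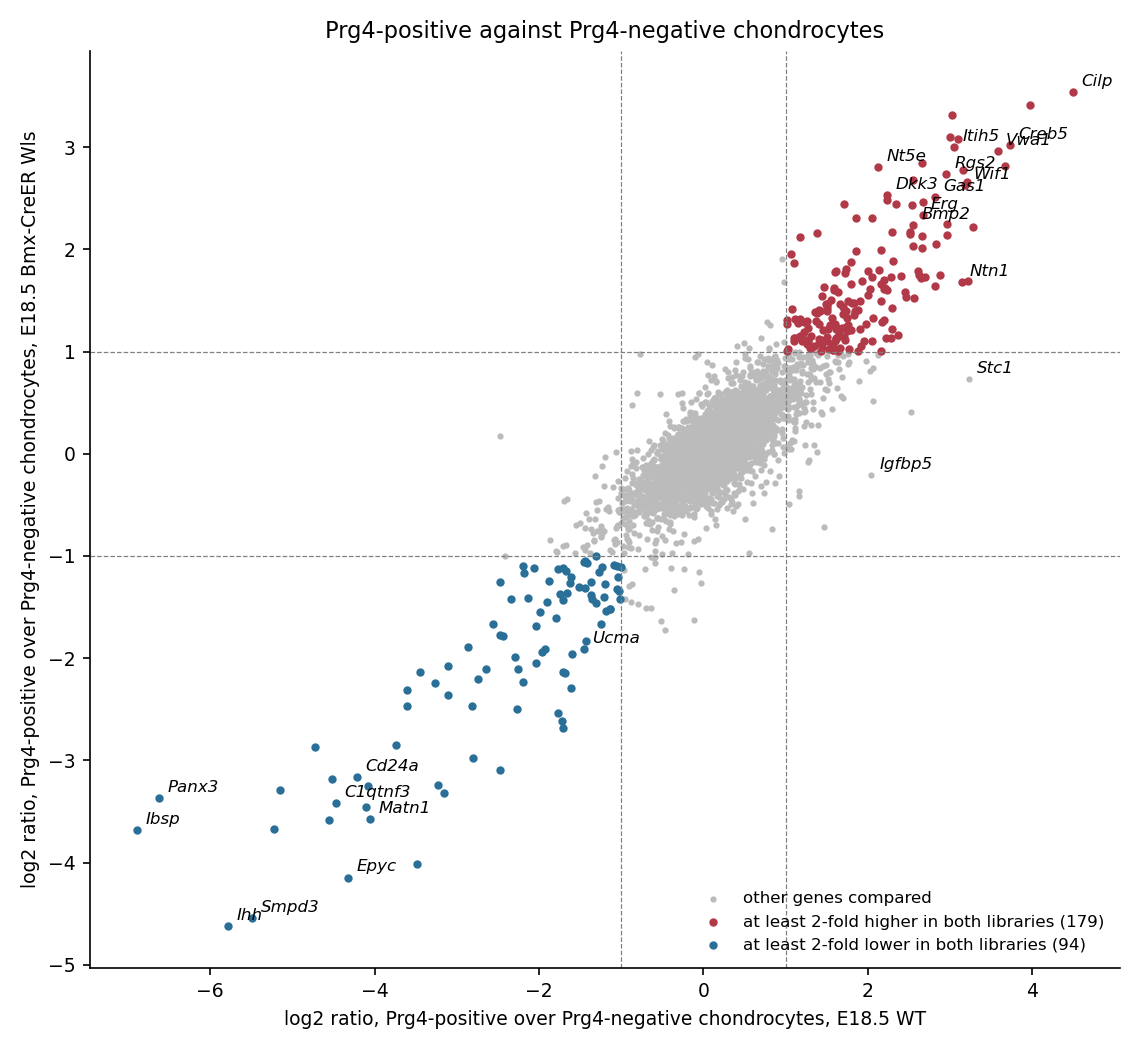
Log2 ratio of Prg4-positive to Prg4-negative chondrocytes in the WT library (x axis) and the Bmx-CreER Wls library (y axis) for the 4714 genes compared, with 179 genes at least 2-fold higher (red) and 94 at least 2-fold lower (blue) in both libraries; dashed lines mark 2-fold. *Cilp* lies at the upper end and *Ihh*, *Smpd3*, *Ibsp* and *Panx3* at the lower end, while *Igfbp5* (ratios 4.11 and 0.867) and *Stc1* (9.37 and 1.66) leave the diagonal.

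Promoter sequence was read for the leading genes because their levels stand together above those of other chondrocytes. RefSeq windows on GRCm38, from 250 bases before to 50 bases after each start site, were given for 7 of the 10 genes, with 10 windows; *Bmp2*, *Dkk3* and *Vwa1* had no entry. The cAMP response element TGACGTCA, the AP-1 element TGACTCA and the TATA element TATATAA were picked after the sequences were seen. Only the 250 bases before each start site were searched for them, on both strands. Among all 32851 windows, 1.55% held the cAMP response element, 4.46% the AP-1 element and 3.04% the TATA element. Each of the 3 was found in 1 of the 10 windows. The 250 bases upstream of *Cilp*, the gene with the highest ratio among genes of at least 100 CPM, lie at chr9:65264930-65265179 on the plus strand, end at the start site and overlap no annotated exon; capitals mark the TATA element 30 bases before the start. For *Creb5*, sites of 30 bases from 2 alternative starts are shown, at chr6:53287247-53287276 with the cAMP response element and at chr6:53573318-53573347 with the AP-1 element in capitals, each 45 bases before its start, on the plus strand. The windows around both *Creb5* starts overlap annotated *Creb5* exons. A match describes the letters and not a bound site.
Cilp promoter: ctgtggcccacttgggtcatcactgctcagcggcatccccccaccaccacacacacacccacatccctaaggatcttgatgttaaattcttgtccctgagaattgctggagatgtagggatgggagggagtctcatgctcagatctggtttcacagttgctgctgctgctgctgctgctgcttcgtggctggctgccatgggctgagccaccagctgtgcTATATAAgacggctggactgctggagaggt
Creb5 upstream start: ggaatcccacgTGACGTCAccgggggggtg
Creb5 downstream start: tgggaaggataTGACTCActcaagctagtt

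With the same limit of 100 CPM and the library nearer to 1 deciding, the 10 lowest ratios belonged to *Smpd3*, *Epyc*, *Ibsp*, *Panx3*, *Matn1*, *C1qtnf3*, *Cd24a*, *Colgalt2*, *Pcolce2* and *Ppa1*. *Epyc*, a leucine-rich proteoglycan of the growth plate, had 118 and 88.9 CPM in WT and Bmx-CreER Wls members against 2372 and 1577 CPM in Prg4-negative cells, ratios of 0.0500 and 0.0564. *Ibsp*, the bone sialoprotein of mineralising matrix, had 7.85 and 45.5 CPM against 931 and 584 CPM. *Smpd3*, a sphingomyelin-cleaving enzyme needed for normal mineralisation, had 7.85 and 9.92 CPM against 353 and 231 CPM. *Panx3*, a channel of prehypertrophic cells, had 7.14 and 44.1 CPM against 706 and 456 CPM. *Matn1* held a ratio of 0.0600 and 0.0839, the widest gap in CPM among the 10. A small group of members, group 9 below, held much of it, and the other members had 305.5 and 370.6 CPM. These genes were thus present at a small fraction of the level in other chondrocytes of the same suspension.

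Of the 20 joint surface and interzone genes listed, 13 were compared, and 11 were higher and 0 lower, with median log2 ratios of 2.57 in WT and 2.05 in Bmx-CreER Wls. Besides *Cilp*, *Creb5*, *Erg* and *Dkk3* these were *Osr2*, *Abi3bp*, *Dcx*, *Barx1*, *Gdf5*, *Cilp2* and *Cd44*. *Osr2*, a zinc finger factor of the developing joint, had 246 and 195 CPM in members against 25.4 and 41.8 CPM. *Gdf5*, the growth factor that marks the interzone, had 86.4 and 118 CPM, with ratios of 2.41 and 2.35. *Barx1*, a homeobox factor of joint cells, had 97.1 and 121 CPM against 17.7 and 40.5 CPM. *Tgfbr2* and *Has2* were the remaining genes compared and did not pass 2-fold in both libraries. The label markers apart from *Prg4* were all 4 higher, with medians of 3.38 and 2.88, but they were named with the cells in advance. The joint list shares *Cilp* with them. Joint surface genes are not particular to the members. The list summed to 3354 and 2786 CPM in members and to 4185 and 5000 CPM in the Prg4-positive cells with low *Col2a1* described below.

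Cartilage matrix genes were abundant in members but differed in mix. *Col2a1*, the main cartilage collagen and part of the rule, was at 37100 and 45359 CPM against 74817 and 71337 CPM in Prg4-negative cells. *Acan*, the core protein of aggrecan, was at 3237 and 3975 CPM against 6473 and 6359 CPM. Of 12 cartilage collagens compared, *Col6a1*, *Col6a2*, *Col6a3* and *Col12a1* were higher, *Col9a1* and *Col9a2* lower, and the medians were -0.19 and -0.33. Collagen VI forms the beaded filaments of the matrix next to the cell, and collagen IX coats collagen II fibrils. *Col6a2* stood at 3859 and 4432 CPM in members against 832 and 1440.0 CPM, and *Col9a1* at 4553 and 4550.0 CPM against 15739 and 13884 CPM. *Col6a1*, *Col6a2* and *Col6a3* thus differed in the opposite direction from *Col9a1* and *Col9a2* in both libraries.

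Among 19 cartilage matrix proteins, *Cytl1* and *Mgp* were higher and 9 were lower, with medians of -1.11 and -0.96. *Mgp*, an inhibitor of calcification, had 4956 and 6094 CPM in members against 1734 and 2621 CPM. *Cytl1*, a small secreted protein of chondrocytes, had 5372 and 5148 CPM against 969 and 1784 CPM. The lower genes included *Matn1*, *Matn3*, *Epyc*, *Chad* and *Ucma*. *Sparc* was the most abundant of the list and differed little, with 11015 and 10072 CPM in members and 12109 and 11504 CPM in Prg4-negative cells. Of 9 small leucine-rich proteoglycans, which bind collagen fibrils, *Fmod* was higher and *Chad*, *Dcn*, *Epyc* and *Lum* lower, with medians of 0.13 and -0.74. Fibromodulin RNA was the most abundant of them, with *Fmod* at 4989 and 7733 CPM in members. It was also the gene that the tendon list counted.

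Lists of growth plate zones differed in extent. Of 4 reserve chondrocyte genes *Gas1* was higher and *Ucma*, a secreted protein of resting cartilage, lower, with medians of -0.92 and 0.07. *Ucma* had 528 and 343 CPM in members against 1449 and 1290.0 CPM. Of 7 column genes *Mgp* was higher and *Chad*, *Epyc*, *Ihh*, *Matn3* and *Pth1r* were lower, with medians of -2.44 and -1.99. Of 9 hypertrophic genes none was higher and 7 were lower (*Ibsp*, *Ihh*, *Panx3*, *Pth1r*, *Runx2*, *Sp7* and *Spp1*), with the lowest medians of the lists, -4.52 and -3.19. *Ihh*, the signal of prehypertrophic cells, was at 0 UMIs in WT members, at least 55-fold lower than the 118 CPM of Prg4-negative cells when set at the floor, and at 4.11 CPM against 101 CPM in Bmx-CreER Wls. Since the rule kept *Col10a1* low in both populations, this gap lies among cells that already lacked high *Col10a1*. Its size varied with the comparison cells. The hypertrophic genes summed to 335.5 and 418 CPM in members and to 2750 and 1904 CPM in Prg4-negative cells. In the Prg4-negative cells with at least 2 *Ucma* UMIs they summed to 1131 and 561 CPM.

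Transcription factors were read in the same way, beside shares over all genes of 3.80% higher and 1.99% lower. Of 18 chondrocyte factors compared, *Nfatc1* was higher and *Runx2*, *Runx3*, *Shox2* and *Sp7* were lower, with medians of 0.30 and 0.29. *Sox9*, the master factor of cartilage, was the most abundant, with 1932 and 1910.0 CPM in members and 2112 and 2027 CPM in Prg4-negative cells. *Nfatc1*, a calcium-responsive factor of surface cartilage, had 223 and 212 CPM against 79.3 and 77.1 CPM. *Runx2*, which drives chondrocyte hypertrophy and bone formation, had 6.43 and 7.87 CPM against 151 and 94.3 CPM. *Sox9* thus did not separate the populations, while the *Runx* and *Sp7* factors of mineralisation did. Of 4 posterior Hox genes compared, which mark position along the limb, none passed 2-fold, with *Hoxc10* at 149 and 165 CPM.

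The BMP and TGF-beta pathway was read as separate lists, beside shares over all genes of 3.80% higher and 1.99% lower. Differences among these lists were not tested. Of 7 ligands compared, *Bmp2*, *Gdf5* and *Tgfb3* were higher and none lower, with medians of 1.24 and 0.49. *Tgfb3* had 97.1 and 96.5 CPM in members against 32.8 and 46.0 CPM. None of 5 receptors passed 2-fold, with medians of 0.59 and 0.43 and *Bmpr1a* the most abundant at 271 and 200.4 CPM. Of 15 antagonists, binders and targets, *Ltbp4*, a protein that holds latent TGF-beta in the matrix, was higher at 92.1 and 146 CPM against 34.0 and 70.9 CPM. The target genes *Id1*, *Id2* and *Id3* had ratios between 0.939 and 1.11 in both libraries.

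In the Wnt pathway genes past 2-fold were found on both sides. Of 6 secreted antagonists compared, *Wif1* and *Dkk3* were higher and *Sfrp1* lower, with medians of 0.67 and 0.90. *Notum*, which cuts the lipid from Wnt proteins, had 132 and 75.6 CPM against 31.6 and 42.4 CPM, a ratio of 4.18 in WT and 1.78 in Bmx-CreER Wls. Of 2 ligands compared *Wnt5a* was lower, at 22.1 and 14.0 CPM against 106 and 79.4 CPM, and *Wnt11* had 65.7 and 62.3 CPM. None of 14 receptor, secretion and target genes passed 2-fold, and *Wls* itself had ratios of 1.80 (1.51 to 2.15) and 1.39 (1.21 to 1.59). Secreted Wnt inhibitors thus stood on both sides, since *Wif1* and *Dkk3* were higher and *Sfrp1* was lower in members.

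The hedgehog and PTHrP list had 8 genes compared. *Gas1* and *Cdon*, both co-receptors for hedgehog, were higher, and *Ihh* and the PTHrP receptor gene *Pth1r* lower, with medians of 0.88 and 0.51. *Cdon* had 393 and 377 CPM in members against 105 and 162 CPM, and *Pth1r* 17.1 and 23.6 CPM against 209 and 131 CPM. Ligand and PTHrP receptor were thus low where the co-receptors were high. Of 7 IGF axis genes, *Igfbp7* alone was higher, with medians of 0.48 and 0.30. *Igf2* and the neighbouring imprinted RNA *H19* were among the most abundant RNAs of members, at 22403 and 24092 CPM and at 41444 and 44350.0 CPM. Of 7 FGF genes, *Fgfr2* was higher, with medians of 1.08 and 0.14. *Fgfr3*, the receptor that restrains growth plate proliferation, had ratios of 0.292 and 0.515 and so missed the threshold in Bmx-CreER Wls.

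Lists of matrix enzymes, microfibrils and hyaluronan were read beside the shares over all genes, 3.80% higher and 1.99% lower. A lone higher gene in a list this short is not a result about the list. Of 12 proteases and inhibitors, *Adamtsl4* was higher and *Adamts3*, *Ctsk* and *Mmp9* lower, with medians of 0.30 and 0.39. *Adamtsl4*, a fibrillin-binding protein, had 131 and 132 CPM in members against 32.1 and 43.3 CPM. Of 13 elastic fibre and microfibril genes, *Fbn2* was higher and *Fbln7*, *Lox* and *Loxl4* lower, with medians of 0.34 and -0.01. Microfibrils of fibrillin store growth factors, and fibrillin 2 is the fetal form; *Fbn2* had 599 and 620.5 CPM against 200.5 and 306 CPM. Of 3 adenosine and phosphate enzymes compared, *Nt5e* and *Enpp1* were higher, with medians of 1.74 and 1.4. *Enpp1*, which makes pyrophosphate and so opposes mineral deposition, had 318 and 306 CPM against 95.6 and 116 CPM. Of 5 hyaluronan genes *Cd44*, *Tnfaip6* and *Vcan* were higher, with medians of 1.41 and 1.01. *Tnfaip6*, which links hyaluronan to carrier proteins, had 77.8 and 93.0 CPM against 12.3 and 12.9 CPM.

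Lists of cell state were read beside the shares over all genes compared, 3.80% higher and 1.99% lower. Of 18 early response genes *Dusp1* and *Nr4a1* were higher, with medians of 0.50 and 0.13, and *Fos* was the most abundant at 3415 and 2731 CPM. Such genes also respond to tissue digestion, whose part was not tested. Of 8 YAP target and mechanical response genes *Ctgf* was lower, with medians of -0.26 and 0.01. None of 12 glycolysis and hypoxia genes passed 2-fold, with medians of -0.28 and 0.08. None of 8 S phase genes did, with medians of 0.64 and 0.62, and of the mitosis genes outside the rule only *Cdk1* was compared, with ratios of 1.51 and 1.48. Replication genes were therefore present in members although the rule had removed mitotic cells.

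Lists of markers of other cell types were also read. Endothelial genes summed to 39.3 and 16.8 CPM in WT and Bmx-CreER Wls members, against 7520 and 7351 CPM in endothelial cells, with all 7 detected and *Egfl7* the most abundant. The 6 haematopoietic genes summed to 34.3 and 6.16 CPM, against 3496 and 3861 CPM in haematopoietic cells, led by *Coro1a*, with 0 and 1 at 0 UMIs. The 6 macrophage genes gave 6.43 and 6.50 CPM, led by *Cd68*, with *C1qa* and *C1qb* at 0 in both. Blood and vessel markers were thus far below their level in the cells they mark, but not absent. Of the 5 osteoclast genes *Calcr* was at 0, and the list, led by *Ctsk*, summed to 63.5 and 39.3 CPM, with *Ctsk* and *Mmp9* the 2 genes compared and both lower. The 6 skeletal muscle genes gave 16.4 and 13.7 CPM, led by *Tnnt3*, with *Myod1*, *Acta1* and *Tnnc2* at 0. None of the endothelial, haematopoietic, macrophage or muscle genes reached the level for comparison.

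Lists of connective tissue share genes with cartilage. The 9 tendon genes summed to 16504 and 17543 CPM, nearly all from *Fmod*, *Col1a1* and *Col1a2*. The defining tendon genes *Tnmd*, *Scx* and *Kera* stood at 2.14 and 2.39, 5.0 and 5.81, and 2.14 and 0.342 CPM, and of 4 genes compared *Fmod* was higher. These 3 tendon genes were therefore near the floor. Of 9 osteoblast genes, which summed to 11422 and 9793 CPM, the most abundant was *Col1a1*, *Bglap* and *Bglap2* were at 0, and *Ibsp* and *Sp7* were lower among 4 compared. The 8 stromal fibroblast genes summed to 3927 and 4093 CPM, mainly *Col3a1*; of 3 compared *Pdgfra* was higher and *Dcn* lower. The 7 synovial lining genes summed to 214 and 218 CPM, led by *Htra1*, with none at 0; of 3 compared *Hbegf*, a membrane-bound growth factor, was higher, at 58.5 and 54.1 CPM. The 5 mural genes gave 1705 and 1627 CPM, almost all from *Cspg4*, a proteoglycan that chondrocytes also make, and *Cspg4*, the gene compared, had ratios of 1.72 and 1.62. *Rgs5*, a pericyte gene of that list, had 82.8 CPM in WT and 14.7 CPM in Bmx-CreER Wls members, and the part of other cells in these values was not tested.

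Prg4-negative chondrocytes with *Ucma* gave a narrower comparison. The Ucma-positive cells were the 675 WT and 958 Bmx-CreER Wls Prg4-negative chondrocytes with at least 2 *Ucma* UMIs. Their level of the growth plate gene *Epyc* was 2742 and 1927 CPM, against 2372 and 1577 CPM in all Prg4-negative chondrocytes. The pool is therefore not read as resting cartilage alone. Members were higher in 237 of 4653 genes (5.09%) and lower in 78 (1.68%). *Cilp* was at 6.69 and 7.99 CPM in Ucma-positive cells, which gives ratios of 183 and 92.6, followed by *Itih5* (13.9 and 14.9) and *Creb5* (23.2 and 11.2). *Stc1*, a secreted regulator of calcium and phosphate transport, had 693 and 352 CPM in members against 15.2 and 35.0 CPM. *Cilp* RNA was thus low in *Ucma*-positive cells that lack *Prg4*, while 21.9% and 14.6% of members themselves had at least 2 *Ucma* UMIs, and the genes lowest in members were again *Epyc*, *Matn1* and *C1qtnf3*, with ratios from 0.0387 to 0.0830.

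The nearest cells on the other side were those with at least 2 *Prg4* UMIs but *Col2a1* under 20 per 10000, 94 in WT and 76 in Bmx-CreER Wls. They had 3833 and 5432 CPM of *Prg4* and 1238 and 1460.0 CPM of *Cilp*. The *Prg4* level follows from the rule, which both populations share, so of these only *Cilp* is informative. *Wif1* differed more, at 1032 and 1186 CPM in members against 152 and 56.9 CPM. Of 5296 genes compared, members were higher in 169 (3.19%) and lower in 425 (8.02%). Cartilage genes led the higher side, with *Matn1*, *Rbp4* and *3110079O15Rik* at its head. *Col9a1* had 4553 and 4550.0 CPM in members against 275 and 190 CPM.

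On the lower side *Clic5*, an ion channel related protein of the synovial lining list, had 12.9 and 10.6 CPM in members against 862 and 702 CPM, and *Hbegf* had 58.5 and 54.1 CPM against 1571 and 2436 CPM. *Col22a1*, a collagen of tissue junctions, led this side with ratios of 0.0135 and 0.0127. Synovial lining genes summed to 3450.0 and 4351 CPM in the low-*Col2a1* cells and to 214 and 218 CPM in members. *Col2a1* divided these populations by rule, so cartilage genes were bound to differ. The *Col10a1* and mitosis limits were applied to members only, and mitosis genes outside the rule summed to 1510.0 and 336 CPM in low-*Col2a1* cells against 237 and 190.2 CPM in members. The part of dividing cells in these counts was not tested.

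Within the members, gene levels changed with *Prg4* itself. The members of each library were ranked by *Prg4* per 10000 UMIs and divided into 3 equal groups of 204 WT or 370 Bmx-CreER Wls cells. *Bmp2* led the genes with at least 100 CPM on average when ranked by the smaller ratio of the 2 libraries, with a change from 196 CPM in the lowest to 526 CPM in the highest group in WT and from 106 to 332 CPM in Bmx-CreER Wls. *Cilp* went from 706 to 1870.0 CPM and from 380 to 1220 CPM, and *Gas1* from 664 to 1410 CPM and from 799 to 1646 CPM. *Dcx*, a microtubule-binding protein on the joint list, went from 52.5 to 207 CPM and from 77.6 to 171 CPM. These genes were chosen for this pattern after their values were seen, so they do not speak for the surface genes as a group.

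Other genes, picked in the same way, had lower levels where *Prg4* was high. *Matn1* went from 1051 to 148 CPM and from 1224 to 196 CPM, and *Ucma* from 799 to 294 CPM and from 579 to 153 CPM. Group 9 of the clustering below had 9670 and 6831 CPM of *Matn1*, against 305.5 and 370.6 CPM in other members. The part of these cells in the *Matn1* change was not tested. *Epyc* went from 208 to 4.56 CPM in WT and from 127 to 39.7 CPM in Bmx-CreER Wls. *Col1a1*, the collagen of bone and fibrous tissue, went from 7214 to 3346 CPM and from 7371 to 3458 CPM. *Sox9* stayed between 1711 and 2086 CPM in all 6 groups, and median depth lay between 2006 and 2166 UMIs in WT and between 2343 and 2634 UMIs in Bmx-CreER Wls. Ranking by *Prg4* per UMI kept depth alike, and any gene that varies with *Prg4* is described here, not tested.

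**Figure D3:**
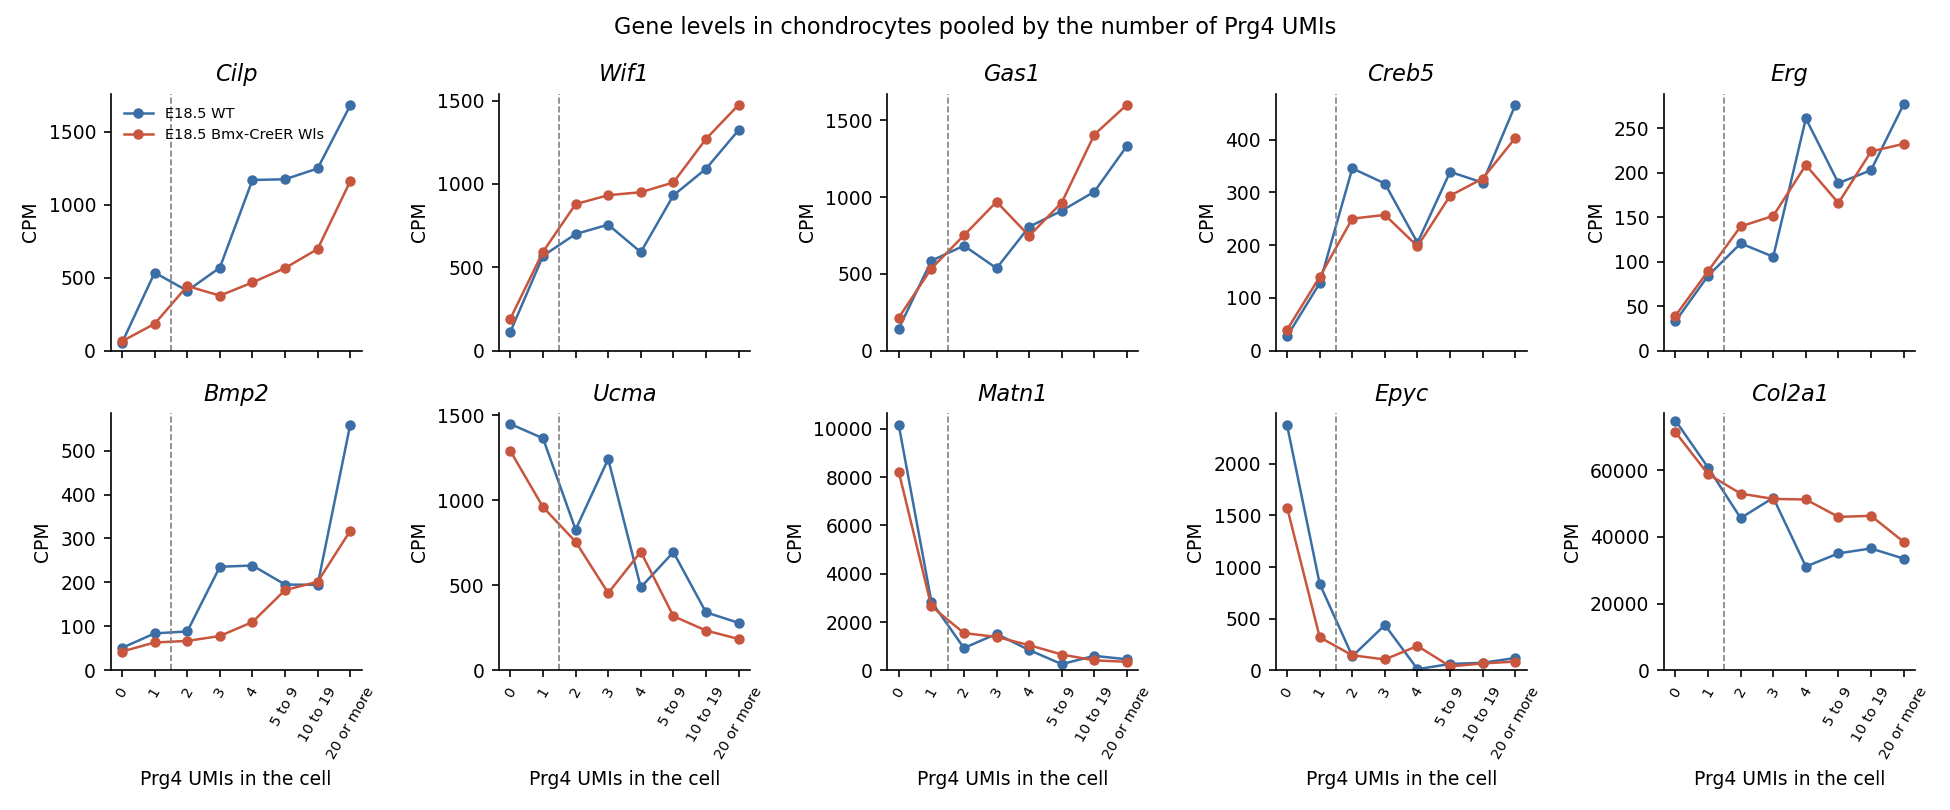
Level of 10 genes (CPM, linear axes from 0) in chondrocytes pooled by the number of *Prg4* UMIs in the cell, for WT (blue) and Bmx-CreER Wls (red). The dashed line is the limit of 2 UMIs that the rule set. Median depth differs among the UMI groups, from 1926 to 2922 UMIs in WT and from 2269 to 2746 UMIs in Bmx-CreER Wls. *Bmp2* stood at 559 and 317 CPM in cells with 20 or more *Prg4* UMIs, against 51.2 and 42.8 CPM in cells with 0, while *Matn1* was at 456 and 354 CPM against 10152 and 8222 CPM.

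Clustering of the members gave 9 groups, each with cells of both libraries, which are described by leading genes and not named as cell types. Group 1 (69 WT and 142 Bmx-CreER Wls cells) had *Cd34*, *Crip1*, *Col4a1*, *Tmsb4x* and *Ntn1* at its head, with *Cilp* at 2567 and 2068 CPM and *Col2a1* at 13999 and 21172 CPM. Group 2 was the largest (161 and 358 cells) and was led in part by *Pcsk5*, *Scrg1* and *Nt5e*, with *Wif1* at 1654 and 1568 CPM and *Col2a1* at 61865 and 59298 CPM. The 2 groups thus differed in the markers themselves. *Cilp* was highest in groups 1 and 4, while *Wif1* was highest in groups 2 and 7. Group 4 (83 and 126 cells) had *Stc1*, *Igfbp5*, *Pdgfa* and *Npr2* at its head, with *Cilp* at 2992 and 1300 CPM and *Col2a1* at 9887 and 18105 CPM. *Cilp* and *Wif1* therefore did not peak in the same groups, while *Vwa1* was highest in group 1, at 205.8 and 409 CPM, where *Cilp* was also high.

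The remaining groups were led by other programmes. Group 3 (45 and 95 cells) had the replication genes *Lig1*, *Mcm5* and *Mcm4* at its head. Group 6 (92 and 195 cells) had early response genes, with *Egr1* at 6337 and 5122 CPM against 1920 and 1422 CPM in the other members. Group 5 (109 and 94 cells) was led by *Col8a1*, *Bmp7*, *Lmo4* and *Rbp4*, and *Cilp* was only 158 and 87.9 CPM there. Group 7 (28 and 45 cells) had the fibril-associated collagen gene *Col14a1*, *Ogn* and collagen I, with *Col1a1* at 17552 and 15877 CPM. Group 8 (14 and 23 cells) was led by *Vim* and *Sun2* and held *Cyp51* and *Hmgcs1*, enzymes of cholesterol synthesis. Group 9 (11 and 32 cells) had *C1qtnf3*, *Matn1* and *Ucma* at its head, with *Matn1* at 9670.0 and 6831 CPM, near the level of Prg4-negative chondrocytes, and *Prg4* at 1846 and 2028 CPM. Its median depth was 3148 and 4072 UMIs, the highest of the 9 groups, and whether these cells were mixed wells was not tested. Differences in group size between libraries were not tested.

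**Figure D4:**
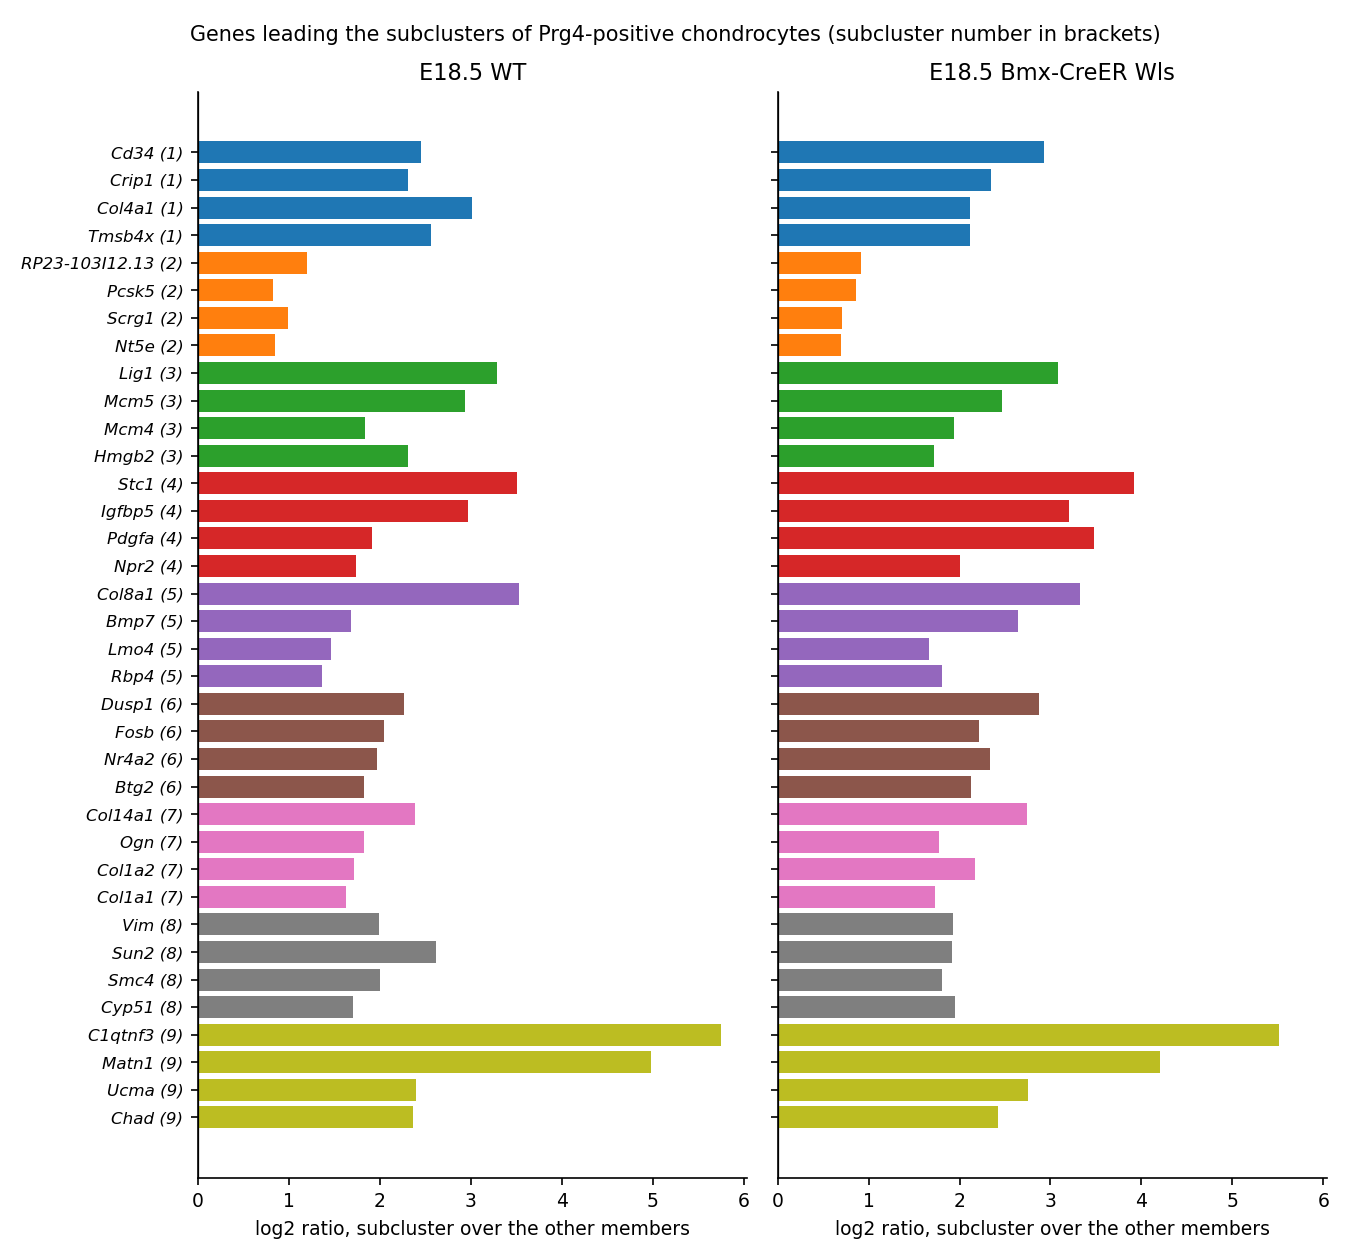
Log2 ratio of the 4 leading genes of each of the 9 groups of Prg4-positive chondrocytes over the other members, in WT (left) and Bmx-CreER Wls (right); the group number stands in brackets and bars start at 0. In group 4 *Stc1* has the highest ratio in both libraries, while *Igfbp5* is 7.85 and 9.24 times the other members, and *C1qtnf3* leads group 9.

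The members of the 2 libraries were then compared directly, over 1615 genes with a mean of at least 100 CPM. In Bmx-CreER Wls 5 genes were at least 2-fold higher (0.310%) and 5 at least 2-fold lower (0.310%) than in WT, with a median log2 ratio of -0.03. In Prg4-negative chondrocytes 10 of these genes were higher and 0 lower, and the same counts held in all kept cells outside the members. These other cells, also named below, include the Prg4-negative chondrocytes, so the ratios of these 2 pools are not independent. Differences of this size were thus rare in members and in both of these overlapping pools. *Prg4* stood at 6826 (6690 to 6964) and 5828 (5741 to 5917) CPM, but it chose the members, so this is description only. Of the 4 label markers the rule did not use, *Vwa1* alone passed 2-fold.

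The genes that were higher were *Xist*, *RP23-103I12.13*, *Gm9843*, *Rps3a1* and *Vwa1*, and *Rpl10-ps3* came next with a ratio of 1.99. *Rps3a1*, a ribosomal protein gene, went from 378 to 863 CPM, a ratio of 2.28 (2.08 to 2.51), with 1.70 in Prg4-negative chondrocytes and 2.01 in other cells. *Gm9843* had a ratio of 2.38 and *RP23-103I12.13* of 2.73 in members. *Gm9843* and *Rpl10-ps3* are pseudogenes or copies of ribosomal protein genes and *Rps3a1* has near-identical copies, so reads can be split among copies and these counts are uncertain. Of 73 ribosomal protein genes 1 passed 2-fold, with a median log2 ratio of 0.21 in members and 0.05 in Prg4-negative chondrocytes. *Vwa1* stood at 131 (112 to 151) and 283 (264 to 303) CPM, a ratio of 2.17 (1.84 to 2.56), and had a ratio of 3.32 in Prg4-negative chondrocytes and 2.22 in other cells. The *Vwa1* difference was therefore common to the libraries and not confined to members.

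The lower genes were *Igfbp5*, *Ntn1*, *Bmp7*, *Col4a1* and *Thsd4*. *Col4a1* did not pass 2-fold without the cells of highest doublet score or with averaging over cells, and *Thsd4* did not with at least 3 *Prg4* UMIs. *Igfbp5* encodes a secreted protein that binds IGFs and alters their access to the receptor. It had 2602 CPM in WT members and 1098 CPM in Bmx-CreER Wls members, a ratio of 0.422 (0.402 to 0.443), while Prg4-negative chondrocytes had 634 and 1266 CPM, a ratio of 2.0, and other cells a ratio of 1.29. A UMI of *Igfbp5* was found in 68.9% (65.1 to 72.6) and 49.8% (46.8 to 52.8) of members, and in 53.2% and 33.9% after thinning to 1000 UMIs. In endothelial cells, at 11.8% and 12.0%, the share was alike. *Igfbp5* was lower in Bmx-CreER Wls in each *Prg4* group, with 2411 and 1357 CPM in the lowest and 2809 and 912 CPM in the highest. Within the *Stc1* and *Igfbp5* group of cells it was 11222 and 5714 CPM, and in the other members 1429 and 618 CPM. The size of the difference was uneven among groups of cells, from 2773 and 381 CPM in group 6 to 1128 and 884 CPM in group 5.

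*Ntn1*, a guidance cue of the netrin family, had 181 and 78.0 CPM, a ratio of 0.432 (0.359 to 0.519), with 1.19 in Prg4-negative chondrocytes. *Bmp7* had 178 and 81.4 CPM, a ratio of 0.456 (0.380 to 0.547), with 0.803 in Prg4-negative cells. *Bmp7* was at 419 and 356 CPM in group 5 and at 130.3 and 57.0 CPM in the other members, and group 5 held 17.8% of WT and 8.47% of Bmx-CreER Wls members. The part of this make-up in the pooled difference was not tested. *Col4a1*, a basement membrane collagen, had 181 and 85.2 CPM (ratio 0.470), and *Thsd4*, a microfibril-binding protein, 182 and 89.3 CPM (ratio 0.490). In Prg4-negative chondrocytes these 2 had ratios of 1.4 and 1.06. All 4 lay far below *Igfbp5* in level. *Col4a1* was abundant in endothelial cells, at 5671 and 6404 CPM, and the endothelial list summed to 39.3 and 16.8 CPM in members; its part in the *Col4a1* difference was not tested. The haematopoietic list also differed, at 34.3 and 6.16 CPM. Mitochondrial RNA was 39201 and 32001 CPM in members and haemoglobin RNA 5.0 and 16.8 CPM.

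**Figure D5:**
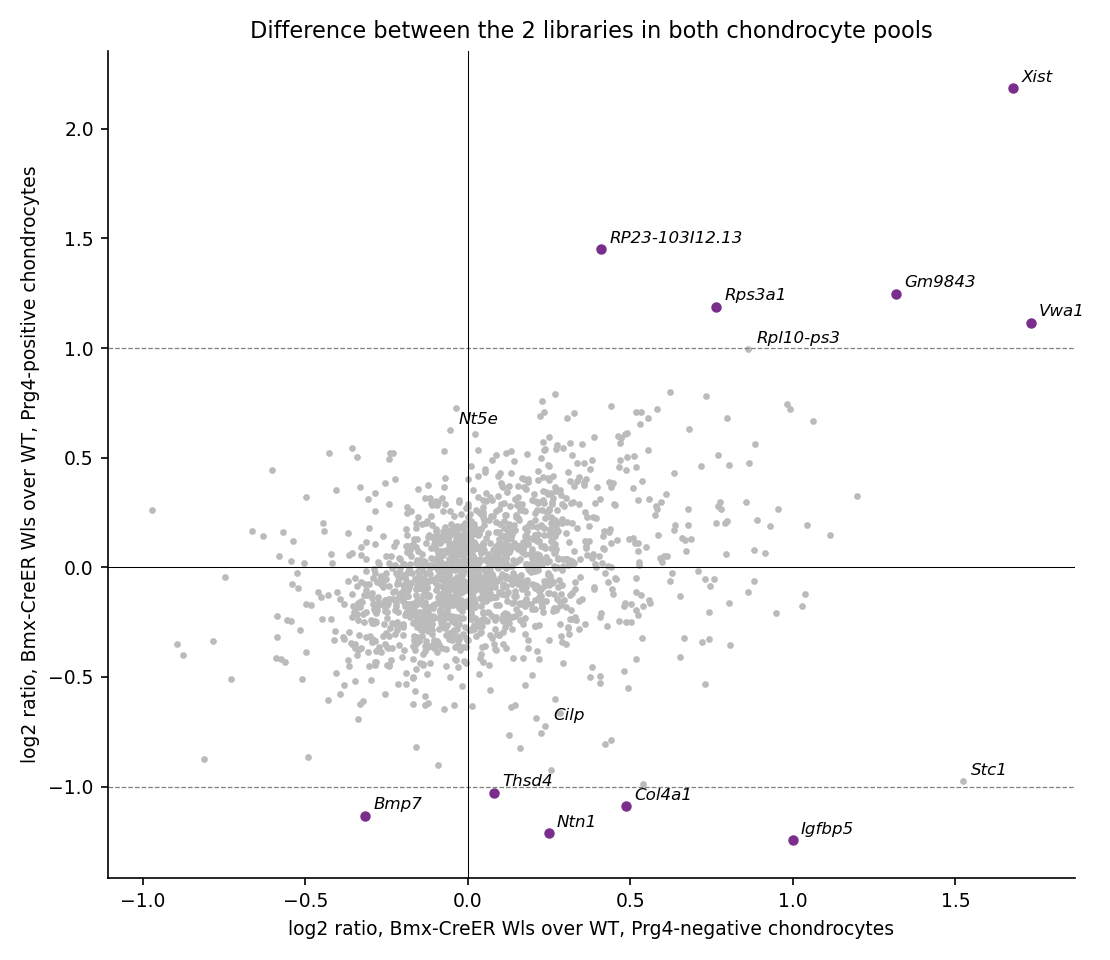
Log2 ratio of Bmx-CreER Wls to WT in Prg4-positive chondrocytes (y axis) against the same ratio in Prg4-negative chondrocytes (x axis) for genes with at least 100 CPM in the members, without *Prg4*; purple points passed 2-fold in members and dashed lines mark 2-fold. *Igfbp5* (0.422 in members, 2.0 in Prg4-negative chondrocytes) and *Stc1* (0.508 and 2.87) lie in the lower right quadrant, and *Xist*, *Vwa1* and *Gm9843* in the upper right.

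Among the markers of the label, *Cilp* was 0.605 (0.567 to 0.645) and *Wif1* 1.15 (1.08 to 1.22) times the WT level in Bmx-CreER Wls members. *Nt5e* was 1.54 (1.35 to 1.76) times the WT level, against 0.963 in Prg4-negative chondrocytes and 1.5 in other cells. *Cilp* and *Nt5e* thus pointed in opposite directions within the same label. Between the libraries no Wnt ligand was abundant enough to compare, and none of 3 antagonists and 8 receptor, secretion or target genes reached 2-fold. With a limit of 30 CPM the antagonist gene *Sfrp5* was counted as higher, at 23.6 and 55.1 CPM. Of the joint surface and interzone genes 10 were compared and none passed 2-fold, with a median log2 ratio of -0.15. The ligand list of the BMP and TGF-beta pathway held 1 of the lower genes, *Bmp7*, and the IGF axis list held *Igfbp5*.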

How the data were processed

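The files that the authors deposited hold counts (UMIs of each gene in each barcode), not normalised. Per the submitters' processing notes, bcl2fastq 2.19.1.403, UMI-tools 1.0.1, STAR 2.7.1a with mm10 and featureCounts 1.6.4 of Subread were used. Members followed the stated rule. Counts were summed per library and population and divided by the total of all genes (CPM). Levels have exact Poisson, shares Clopper-Pearson and ratios conditional binomial 95% intervals, which cover counting error only. No test was possible with 1 library per genotype. Calculations ran in Python 3.11.15 with scanpy 1.11.5, pandas 2.3.3, matplotlib 3.10.9, numpy 2.4.6 and scipy 1.17.1. Clustering used 1500 variable genes, 15 components, 20 neighbours and Leiden resolution 0.5. Scrublet's automatic threshold called 39 WT cells (0.680%) and 0 Bmx-CreER Wls cells, so it did not work and no doublet was removed; above the top 5% of scores lay 20 and 32 members.

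Named genes were the rule and label genes, 39 lists, the 10 highest and 10 lowest ratios to Prg4-negative chondrocytes, the 5 highest and 5 lowest between libraries without mitochondrial, haemoglobin, *Xist* and Y-linked genes, Wnt genes, the 10 most abundant genes and genes that lead clusters. *Stc1*, the genes named against Ucma-positive and low-*Col2a1* cells and those named along *Prg4* level were chosen after their values were seen. Members and lists were chosen with earlier results of these data known. Of 22652 gene symbols 94.0% matched the GENCODE annotation. Alternatives changed the *Prg4*, *Col2a1*, cell and expression limits, doublets, depth, scaling and averaging. A result that needs an item withheld for evaluation was left out.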

Additional observations from a re-analysis of the deposited data

Results flagged for a closer look

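*Igfbp5* had a ratio of Bmx-CreER Wls to WT of 0.422 in Prg4-positive chondrocytes and 2.0 in Prg4-negative chondrocytes of the same libraries, so the 2 populations differed in opposite directions; the difference was not tested. *Stc1*, chosen after its values were seen, had a ratio of 0.508 in Prg4-positive and 2.87 in Prg4-negative chondrocytes, with 693 and 352 CPM in WT and Bmx-CreER Wls members and 74.0 and 212 CPM in Prg4-negative cells; this difference was not tested either.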

How the results depend on the processing

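Of 44 alternative values 27 stayed within the interval or within 1.5 times the value reported, and 17 did not. The share of members in kept cells was 9.62% in WT and 14.8% in Bmx-CreER Wls with at least 3 *Prg4* UMIs, 12.8% and 20.4% with at least 1, 11.5% and 17.9% with at least 5 per 10000 UMIs, and 9.70% and 14.2% after thinning; *Col2a1* of at least 50 per 10000 gave 9.59% in WT. These limits admit more or fewer cells by construction, and the WT share was the lower in each. Against Prg4-negative chondrocytes, a limit of 100 CPM left 70 higher and 39 lower genes and a limit of 10 CPM 298 and 182, since fewer or more genes were compared. Between libraries, 30 CPM gave 17 higher and 27 lower genes and 300 CPM gave 1 (*Rps3a1*) and 1 (*Igfbp5*), for the same reason; the 27 include the vessel and mural genes *Plvap*, *Cav1*, *Rgs5* and *Mylk* and the Y-linked *Ddx3y*. With comparison cells drawn to the depth of the members, 165 genes were higher and 66 lower, 149 and 61 of them among the 179 and 94. No paired analysis was possible because there was 1 library per genotype. Depth limits genes near the floor of 2.14 and 1.03 CPM.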
